A study of Homo sapiens with 24 samples.

Results

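The RAS, RAF and ERK pathway genes described here are NRAS, HRAS, BRAF, MAP2K1, MAPK3, DUSP6 and SPRED1, taken as the rows of the 3 count tables that carry these symbols. All 7 were found among the 26364 genes of the tables, and all 7 passed the filter on low counts in every comparison. The cells were clones of the established breast cancer cell line T-47D, which expresses estrogen receptor alpha (ER). The endogenous ESR1 gene, which encodes ER, was WT in 2 clones (D1 and D4), carried the Y537S mutation in 2 clones (clone 1 and clone 2) and carried the D538G mutation in 2 clones (A5 and C2). Mutant cells were heterozygous, so each mutant clone also kept a WT allele. All cells were kept in hormone-deprived medium, transfected at 10 nM and harvested 24 h later. The 24 libraries fall into 12 conditions with 1 library per clone. Every genotype had a mimic negative control and a miR-301b-3p mimic. A mimic of miR-331-3p was given to WT and Y537S cells, and one of miR-181c-5p to WT and D538G cells. Y537S cells alone also had an inhibitor negative control and an inhibitor of let-7f-5p. Mimics are synthetic duplexes that act in place of the natural miRNA, inhibitors are oligonucleotides that bind a miRNA and block it, and the negative controls have no intended target. With 1 pair of clones per genotype, a difference between genotypes cannot be told apart from a difference between these particular clones. In the main fits p-values measure the spread between the clones. Fits with the clone as a block compare each clone with itself. Their p-values rest on how alike the change was in the 2 clones of a genotype.

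RAS proteins are small GTPases at the plasma membrane that relay signals from growth factor receptors. In the GTP-bound state they recruit RAF kinases, RAF phosphorylates the MEK kinases, and MEK phosphorylates the ERK kinases, which act on cytoplasmic and nuclear substrates and on transcription. NRAS and HRAS encode RAS GTPases, BRAF encodes a RAF kinase, MAP2K1 encodes the kinase MEK1 and MAPK3 encodes the kinase ERK1. DUSP6 encodes a cytoplasmic phosphatase that removes the activating phosphates from ERK, and its transcript is induced by ERK activity. SPRED1 encodes a membrane-bound inhibitor of RAS that brings the GTPase-activating protein neurofibromin to the membrane. In ER-positive breast cancer the pathway is known to phosphorylate ER and to be linked to endocrine resistance. Only transcript levels were measured, not protein or phosphorylation.

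A miRNA pairs through its seed, bases 2 to 8 from the 5′ end, with sites in the 3′UTR of its targets. The mature sequences of the 4 miRNAs are shown because the seed is what the matches in the member genes are compared with. They come from RefSeq (table for GRCh38.p14), run 5′ to 3′, and have the seed in capitals. No 2 of them share a seed.
miR-301b-3p: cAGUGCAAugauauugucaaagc
miR-331-3p: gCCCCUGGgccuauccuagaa
miR-181c-5p: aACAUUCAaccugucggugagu
let-7f-5p: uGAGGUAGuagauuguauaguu

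The 3′UTR of the canonical transcript of each member, in the GENCODE annotation on GRCh37 (hg19), was searched on the transcript strand for the complement of each seed: TTGCACT for miR-301b, CCAGGGG for miR-331, TGAATGT for miR-181c and CTACCTC for let-7f. A match to miR-301b was present in MAP2K1 and SPRED1, against 14.2% of the 18750 genes with a 3′UTR. None of the 7 members held a match to miR-331, which 14.1% of genes held. NRAS, MAP2K1 and DUSP6 held 5 matches to miR-181c between them, and 19.5% of genes held at least 1. NRAS was the member with a let-7f match, which 9.85% of genes held. HRAS, BRAF and MAPK3 held none of the 4 in these transcripts. In the longest annotated 3′UTR of each gene, BRAF gained 1 let-7f match and 2 miR-181c matches. The match in SPRED1 extended to the adenosine that follows the seed match, an 8-base match that 2.87% of genes held for miR-301b. The 3′UTR is 5585 bases long in SPRED1, 3932 in BRAF, 3625 in NRAS, 2019 in DUSP6, 929 in MAP2K1, 636 in MAPK3 and 286 in HRAS. The median over genes with a 3′UTR is 1088 bases. A longer 3′UTR has more room for a match, and the shares were not adjusted for length. The 8 matches are printed as 28 bases of the transcript, 5′ to 3′, with the 7 complementary bases in capitals, and the coordinates are those of the 7 bases. A match describes the letters of a transcript and was not tested as a binding site.
NRAS, let-7f, minus strand of chr1:115250523-115250529: aagttctcagaataaCTACCTCctcact
NRAS, miR-181c, minus strand of chr1:115249985-115249991: tccttatgcatgaaaTGAATGTctgaga
NRAS, miR-181c, minus strand of chr1:115247149-115247155: tctttttaatttggtTGAATGTtttttc
MAP2K1, miR-181c, plus strand of chr15:66783239-66783245: acagtgaaattttggTGAATGTgggtag
MAP2K1, miR-301b, plus strand of chr15:66783264-66783270: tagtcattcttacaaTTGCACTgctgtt
MAP2K1, miR-181c, plus strand of chr15:66783681-66783687: taaatggaattatttTGAATGTcacaaa
DUSP6, miR-181c, minus strand of chr12:89741834-89741840: aactattttggctatTGAATGTgtgttt
SPRED1, miR-301b, plus strand of chr15:38648008-38648014: aaactggcattattgTTGCACTaaaaaa

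On GRCh37, NRAS lies on chromosome 1 (115247090 to 115259392, minus strand), HRAS on chromosome 11 (532242 to 537321, minus), BRAF on chromosome 7 (140419127 to 140624729, minus) and MAP2K1 on chromosome 15 (66679175 to 66783994, plus). MAPK3 lies on chromosome 16 (30125426 to 30134827, minus), DUSP6 on chromosome 12 (89741012 to 89746278, minus) and SPRED1 on chromosome 15 (38545037 to 38649450, plus). BRAF overlaps NDUFB2 and MAP2K1 overlaps SNAPC5, each on the opposite strand, and the strand setting of the counting is not given in the sources used here. Reads of these pairs could therefore not be told apart with certainty, and values of the partners are given beside BRAF and MAP2K1 in the comparisons below.

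Libraries held 31379962 to 50526442 counts. Of the luminal markers of the labelled cell type, GATA3 was between 1360 and 1720 and KRT8 between 2240 and 5030 CPM (counts scaled to a common library size) in all 24 libraries. ESR1 ranged from 71.4 to 291 CPM. The basal keratins KRT5 and KRT14 did not exceed 0.357 CPM, but the basal marker TP63 was at 0 in no library and ranged from 0.118 to 8.25 CPM. The leukocyte marker PTPRC was at 0 in 19 libraries, and of the stromal genes COL1A1 ranged from 47.3 to 81 CPM while COL1A2 did not exceed 0.109 and VIM 1.95 CPM. CPM values here are normalized over all 24 libraries by the trimmed mean of M values. Differences are log2 fold changes from edgeR's quasi-likelihood test, each with its standard error (SE), and a gene was called at a Benjamini-Hochberg adjusted p under 0.05 over all genes tested. Groups said not to overlap are 2 libraries against 2, which often separate without any difference between conditions. The share of all genes that did so was not counted, so non-overlap only describes the values.

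Per kilobase of the canonical transcript, MAPK3 and HRAS were the most abundant members, NRAS and MAP2K1 were intermediate, and BRAF, DUSP6 and SPRED1 were low. In WT cells given the mimic control the mean level was 31.6 CPM per kilobase for MAPK3, 29.1 for HRAS, 14.1 for NRAS, 13.5 for MAP2K1, 2.84 for BRAF, 1.16 for DUSP6 and 0.724 for SPRED1. NRAS and MAP2K1 overlapped between the clones in that order, and the other neighbours did not. In Y537S cells HRAS (41.4 CPM per kilobase) stood above MAPK3 (35.0), and MAP2K1 (18.8) above NRAS (16.3). D538G cells had the same order, with HRAS at 47, MAPK3 at 33.7, MAP2K1 at 21.6 and NRAS at 12.9 CPM per kilobase. DUSP6 and SPRED1 overlapped in Y537S cells, where the DUSP6 level of clone 1 was 0.433 and that of clone 2 was 1.29 CPM per kilobase. Over all 24 libraries the largest spread was that of DUSP6, from 1.24 to 7.31 CPM (47 to 306 counts), and the smallest was that of BRAF, from 13.1 to 20.7 CPM (455 to 805 counts).

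**Figure D1:**
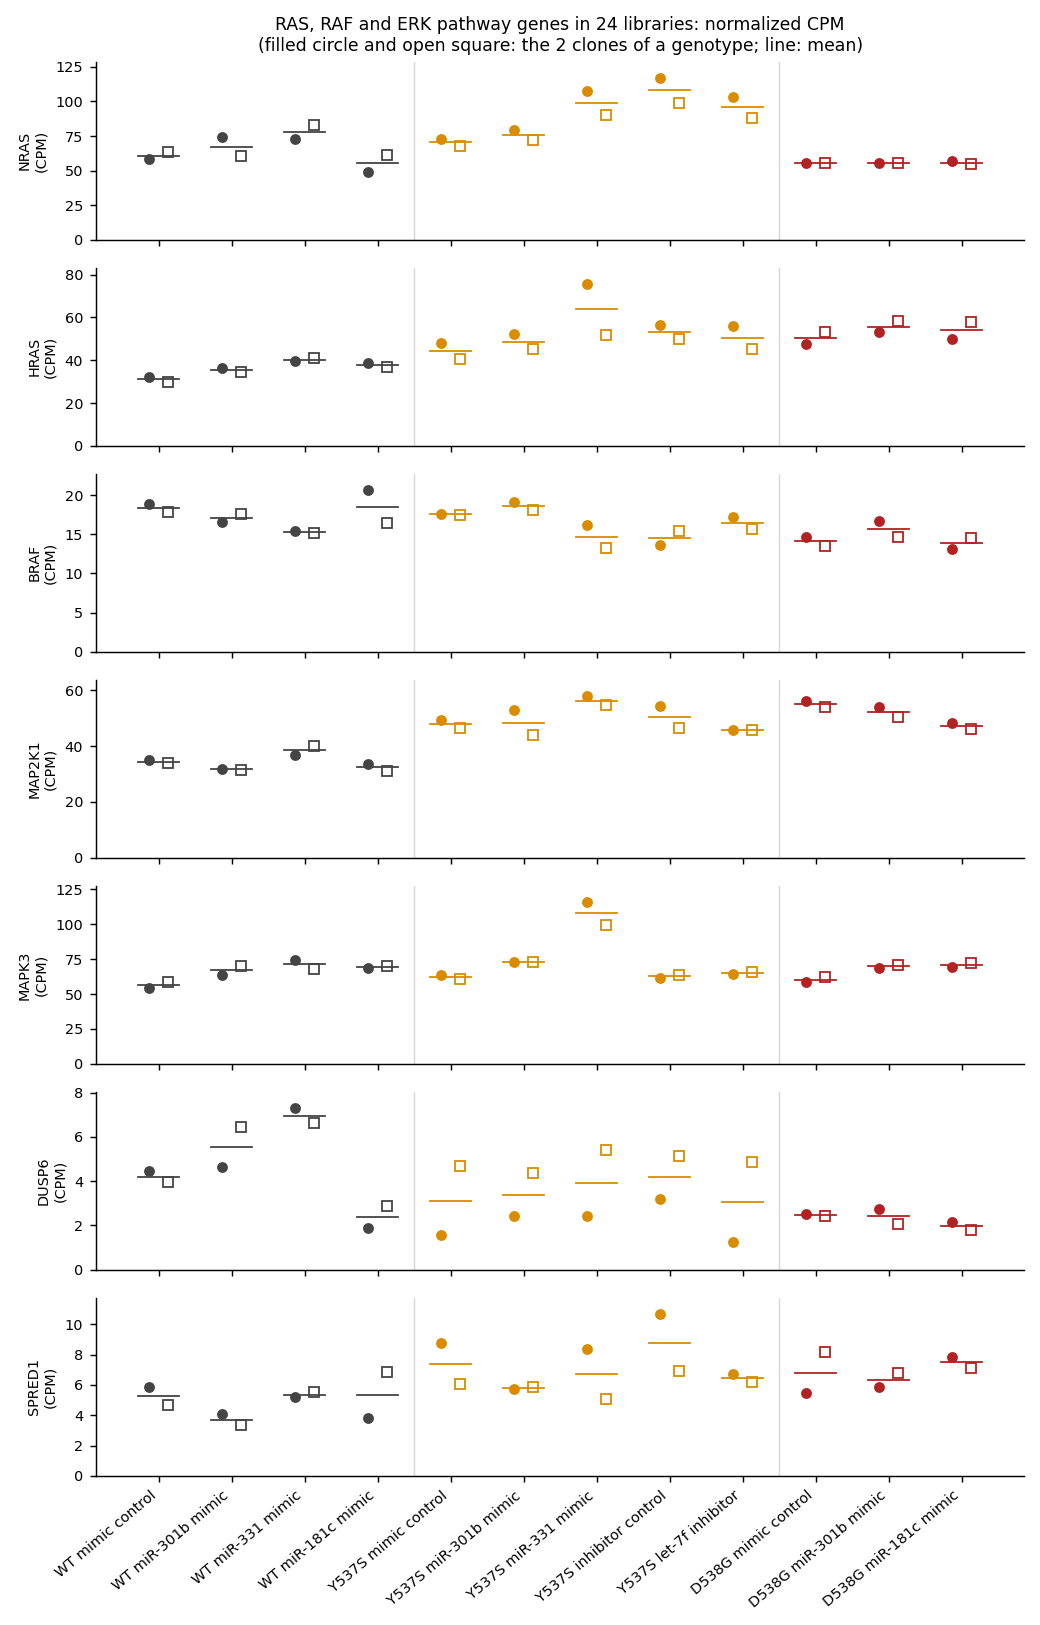
Normalized CPM (y axis, linear from 0) of the 7 members in the 12 conditions (x axis, grouped as WT, Y537S and D538G), with a filled circle and an open square for the 2 clones of a genotype and a line for their mean. The 8 WT libraries sit at 31.2 to 40.2 CPM for MAP2K1, all below the 16 mutant libraries at 43.9 to 58.0 CPM, and clone 1 of Y537S lies below clone 2 for DUSP6 in all 5 Y537S conditions.

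HRAS and MAP2K1 were higher in both ER mutants than in WT cells under the mimic control, and DUSP6 and BRAF were lower in D538G cells. Both mutants were set against the same WT control libraries, so these differences share them. In Y537S against WT cells 2 members were called, both higher, against 29% of the 15106 genes tested. In D538G against WT cells 4 members were called, 2 in each direction, against 38.9% of 14942 genes. Whether lower values reflect fewer cells of a kind or less RNA per cell cannot be told apart in bulk samples.

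MAP2K1, the MEK1 gene, was at 34.9 CPM in WT clone D1 and 34.1 in D4, at 49.4 in Y537S clone 1 and 46.6 in clone 2, and at 56.2 in D538G clone A5 and 54.0 in C2. All 4 mutant control libraries were above both WT control libraries. The log2 difference was 0.51 (SE 0.098, adjusted p = 0.0086) for Y537S and 0.68 (SE 0.084, adjusted p = 0.0003) for D538G. The overlapping gene SNAPC5 was lower in level, at 7.32 ± 0.611 CPM in WT, 10.1 ± 0.387 in Y537S and 10.4 ± 0.0199 in D538G control cells (SD, n = 2 each), and its part in the MAP2K1 difference was not tested. Among the libraries given the miR-301b mimic, which are separate libraries of these clones, the differences were 0.63 (adjusted p = 0.0103) for Y537S and 0.73 (adjusted p = 0.0003) for D538G.

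HRAS was at 32.3 CPM in WT clone D1 and 29.9 in D4, at 47.8 and 40.8 in Y537S clones 1 and 2, and at 47.4 and 53.3 in D538G clones A5 and C2. No mutant control library fell to the WT levels. The log2 difference was 0.54 (SE 0.117, adjusted p = 0.014) for Y537S and 0.70 (SE 0.098, adjusted p = 0.00059) for D538G, and 0.48 (adjusted p = 0.0283) and 0.66 (adjusted p = 0.00082) among the miR-301b mimic libraries. Both D538G calls, HRAS and MAP2K1, remained after any 1 library was left out. The Y537S calls were lost when either WT library was left out: without D1 the adjusted p was 0.0625 for HRAS and 0.0718 for MAP2K1, and without D4 it was 0.107 and 0.081. HRAS and MAP2K1 had a Pearson correlation of 0.854 in log2 CPM over the 24 libraries, the highest among the 21 pairs of members, and these libraries share clones, controls and treatments.

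DUSP6 was at 4.44 and 3.97 CPM in the WT control clones and at 2.52 and 2.44 CPM in the D538G control clones, which do not overlap. The log2 difference for D538G was −0.76 (SE 0.25, adjusted p = 0.037), and among the miR-301b mimic libraries it was −1.19 (adjusted p = 0.0056). In Y537S cells DUSP6 was split between the clones, at 1.57 CPM in clone 1 and 4.68 CPM in clone 2, with a log2 difference of −0.39 from WT (SE 0.47, adjusted p = 0.56). Without Y537S clone 2 that difference was −1.39 (adjusted p = 0.0059). BRAF was at 18.9 and 17.8 CPM in WT and at 14.7 and 13.6 CPM in D538G control clones, a log2 difference of −0.37 (SE 0.127, adjusted p = 0.043). Its opposite-strand neighbour NDUFB2 was at 28.5 ± 0.771 CPM in WT and 27.4 ± 1.27 CPM in D538G control cells (SD, n = 2 each). The BRAF call was lost with any 1 of the 4 libraries left out, at adjusted p values from 0.0508 to 0.176, and so was the DUSP6 call, at 0.0703 to 0.161. With DESeq2 neither was called (adjusted p = 0.074 for BRAF and 0.081 for DUSP6), with the GC correction BRAF was not (0.055), and among the miR-301b mimic libraries the BRAF difference was −0.11 (adjusted p = 0.592).

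The other members did not pass the test against WT cells. NRAS was at 58.6 and 63.2 CPM in WT, 73.0 and 68.0 in Y537S and 55.3 and 55.9 in D538G control clones. MAPK3 lay between 54.7 and 64.0 CPM in these 6 libraries, with log2 differences of 0.17 (SE 0.092) for Y537S and 0.09 (SE 0.083) for D538G. SPRED1 ranged from 4.66 to 8.75 CPM, with log2 differences of 0.52 (SE 0.25, adjusted p = 0.16) and 0.37 (SE 0.25, adjusted p = 0.26). Without Y537S clone 2, NRAS (0.29, adjusted p = 0.0318) and SPRED1 (0.76, adjusted p = 0.0208) were called against WT. Without D538G clone A5, SPRED1 was called as well (0.64, adjusted p = 0.0496). Among the miR-301b mimic libraries the SPRED1 difference was 0.66 (adjusted p = 0.0832) for Y537S and was called for D538G (0.78, adjusted p = 0.023). Between Y537S and D538G cells no member was called by edgeR, against 6.19% of 14935 genes tested. NRAS differed most clearly there, by 0.36 (SE 0.088, adjusted p = 0.059), and DESeq2 called it (adjusted p = 0.036).

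**Figure D2:**
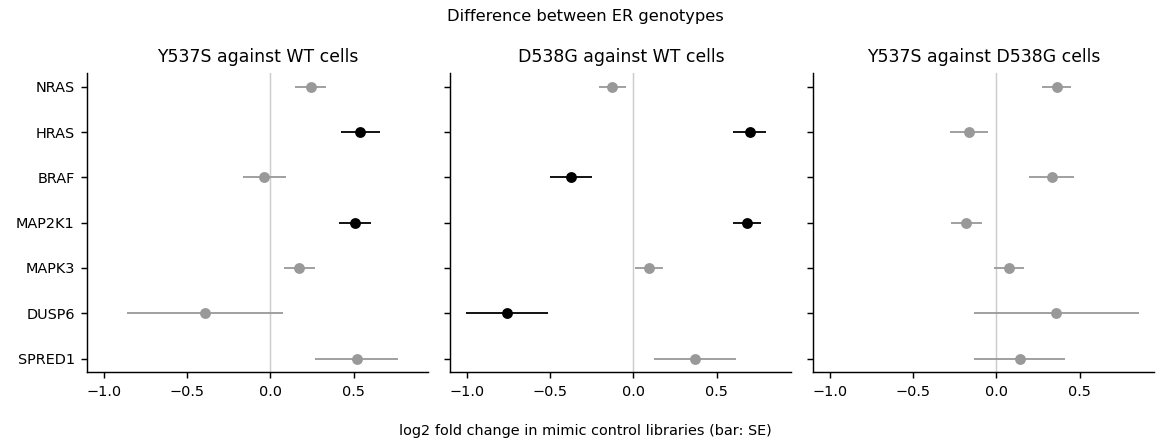
Log2 fold change (x axis) of each member (y axis) between ER genotypes in the mimic control libraries, with bars for 1 SE, black where called and grey where not. HRAS and MAP2K1 lie between 0.51 and 0.70 in both mutants against WT, DUSP6 and BRAF are below 0 and called in D538G alone, and no member is called between the mutants.

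More members were called after the miR-331 mimic than after any other treatment, and the called changes were rises. This mimic also had the most calls over all genes, while the other treatments called at most 16.4%. In Y537S cells NRAS and MAPK3 were called, 2 of 7 members against 33% of 14877 genes tested. In WT cells NRAS, HRAS, MAPK3 and DUSP6 were called, 4 of 7 against 24.8% of 15140 genes. None of these transcripts holds a miR-331 seed match.

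MAPK3, the ERK1 gene, was at 64.0 and 61.0 CPM in the control libraries of Y537S clones 1 and 2 and at 116 and 99.7 CPM after the mimic. Both mimic libraries were above both control libraries and above every other library of the series. The fold was 1.76 (log2 0.82, SE 0.108, adjusted p = 0.0075), and the call remained with any 1 library left out, at log2 values from 0.72 to 0.95. In WT cells MAPK3 went from 54.7 and 58.3 CPM in D1 and D4 to 74.7 and 67.9 CPM, a fold of 1.28 (log2 0.36, SE 0.075, adjusted p = 0.006). Without the mimic library of D1 that log2 value was 0.29 (adjusted p = 0.0871).

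NRAS, a RAS GTPase gene, was at 73.0 and 68.0 CPM in Y537S control clones 1 and 2 and at 107 and 90.1 CPM after the miR-331 mimic, with no overlap. Its fold was 1.43 (log2 0.51, SE 0.115, adjusted p = 0.024). The call was lost without the control library of clone 1 (adjusted p = 0.0537), without that of clone 2 (0.0875) and without the mimic library of clone 1 (0.0836). In WT cells NRAS went from 58.6 and 63.2 to 73.1 and 83.2 CPM, a fold of 1.31 (log2 0.39, SE 0.079, adjusted p = 0.0054), which was not called without the mimic library of D4 (0.29, adjusted p = 0.0581).

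HRAS was at 47.8 and 40.8 CPM in Y537S control clones and at 75.6 and 51.9 CPM after the mimic, so that the clones spread further apart. Its log2 value of 0.55 (SE 0.192, adjusted p = 0.078) did not pass the test without a block. With a block for clone, which compares each clone with itself, it was 0.53 (SE 0.077, adjusted p = 3.5e-06), and MAP2K1 was called too, at 0.26 (SE 0.069, adjusted p = 0.0027). SNAPC5, which overlaps MAP2K1, was at 10.1 ± 0.387 CPM in these controls and 11.4 ± 2.29 CPM after the mimic (SD, n = 2 each), and its part in that value was not tested. HRAS was also called with DESeq2 (adjusted p = 0.026). Under the block 4 members were called, against 60.7% of all genes. In WT cells HRAS went from 32.3 and 29.9 to 39.6 and 40.9 CPM, a fold of 1.31 (log2 0.39, SE 0.083, adjusted p = 0.0061). The block called the same number of members in WT cells, 4, against 37% of genes.

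DUSP6, the ERK phosphatase gene, was at 4.44 and 3.97 CPM in WT control clones and at 7.31 and 6.61 CPM after the miR-331 mimic, the highest levels of this gene in the series. The fold was 1.68 (log2 0.75, SE 0.184, adjusted p = 0.013), and without the mimic library of D1 the log2 value was 0.67 (adjusted p = 0.11). In Y537S cells the clones again stood apart, at 1.57 and 4.68 CPM in the controls and at 2.44 and 5.41 CPM after the mimic. The log2 value there was 0.35 (SE 0.62, adjusted p = 0.70). BRAF was lower in both genotypes, at −0.23 in each (SE 0.154 in Y537S and 0.108 in WT), and SPRED1 was at −0.11 in Y537S and 0.05 in WT cells. Neither passed the test. NDUFB2, which overlaps BRAF, moved the other way, from 27.9 ± 1.81 to 49.0 ± 7.14 CPM in Y537S and from 28.5 ± 0.771 to 32.9 ± 0.221 CPM in WT cells (SD, n = 2 each), and its part in the BRAF values was not tested.

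The members differ in base composition, and correcting each library for GC content moved their values after the mimics. The canonical transcript is 64.3% GC for HRAS and 61% for MAPK3, 51.2% for MAP2K1, 46.5% for DUSP6, 41.1% for BRAF, 37.4% for NRAS and 36.3% for SPRED1. A GC correction took each gene's log2 CPM in a library less its mean over the libraries compared. It removed from each library the trend of this deviation on GC content. The trend was fitted on genes with a GC value and a positive mean log2 CPM, so it depends on the libraries compared. With this correction and the clone as a block, the miR-331 mimic changed HRAS by 0.04 in Y537S cells (adjusted p = 0.68) and by −0.13 in WT cells (adjusted p = 0.23). MAPK3 was at 0.40 in Y537S cells (adjusted p = 5.2e-06) and at −0.02 in WT cells (adjusted p = 0.86). MAP2K1 was at 0.16 in Y537S cells (adjusted p = 0.053). NRAS was larger, at 1.06 in Y537S and 0.52 in WT cells, DUSP6 remained at 0.79 in WT cells (adjusted p = 0.00018) and SPRED1 was called in Y537S cells, at 0.50 (adjusted p = 0.011). Over all genes this combined fit called 8041 of 14877 in Y537S and 3636 of 15140 in WT cells. How much of a member's change belongs to a GC trend of the library was not tested.

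**Figure D3:**
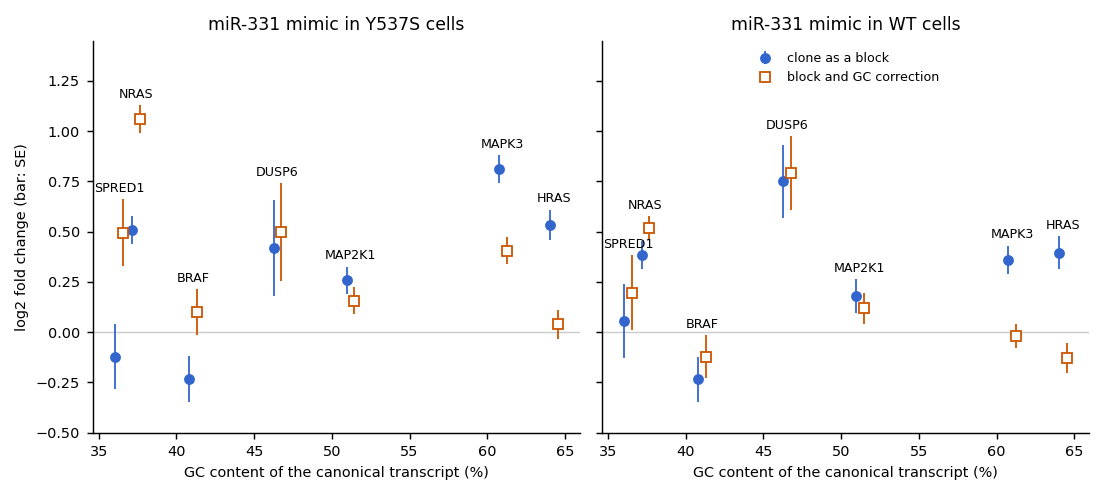
Log2 fold change after the miR-331 mimic (y axis, bars for 1 SE) against the GC content of each member's canonical transcript (x axis, percent), in Y537S cells on the left and WT cells on the right. Filled circles have the clone as a block, open squares add the GC correction, and the 2 are shifted slightly sideways so as not to hide each other. HRAS falls to 0.04 and −0.13 with the correction and NRAS rises to 1.06 and 0.52.

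Whether a response differs between a mutant and WT cells was tested with the interaction of genotype and treatment, given as a difference in log2 fold change. For the miR-331 mimic, 9.94% of 15666 genes differed between Y537S and WT cells and no member did. MAPK3 had the clearest difference, 0.44 higher in Y537S cells (SE 0.139, adjusted p = 0.080). With a block for clone it was 0.44 (SE 0.102, adjusted p = 0.0013), and MAPK3 was then the 1 member called, against 34.1% of genes. DESeq2 also called it (adjusted p = 0.036), and with block and GC correction combined it was 0.39 (adjusted p = 0.0018). NRAS differed by 0.11 (SE 0.154), and by 0.49 (adjusted p = 0.00023) with block and GC correction combined. The combined fit called 5175 of 15666 genes over all. For the miR-301b mimic, 1 gene of 15814 (0.00632%) differed between Y537S and WT cells and 1 of 15613 (0.0064%) between D538G and WT cells. For the miR-181c mimic, 1 of 15482 (0.00646%) differed between D538G and WT cells. None of these was a member, and the member with the largest difference was DUSP6, at −0.43 (SE 0.36) for miR-301b in D538G cells and 0.51 (SE 0.40) for miR-181c.

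After the miR-301b mimic no member was called in any genotype, against 3.57% of 15145 genes in Y537S, 11.8% of 14845 in D538G and 8.5% of 15113 in WT cells. MAPK3 was higher in each clone of all 3 genotypes and its mimic and control libraries did not overlap, a description without the share over all genes. It went from 64.0 and 61.0 to 72.7 and 72.8 CPM in Y537S, from 58.3 and 62.0 to 69.0 and 70.8 CPM in D538G, and from 54.7 and 58.3 to 63.8 and 70.4 CPM in WT cells. The log2 values were 0.20 (SE 0.085, adjusted p = 0.23), 0.22 (SE 0.087, adjusted p = 0.13) and 0.24 (SE 0.089, adjusted p = 0.13). With a block for clone MAPK3 was called in all 3, at adjusted p values of 0.020, 0.020 and 0.018, while 38.4%, 33.3% and 28.2% of all genes were called. With block and GC correction combined its values were −0.08, −0.05 and −0.04, none of them called. Without the mimic library of D1, MAPK3 was called in WT cells (0.31, adjusted p = 0.0471).

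The 2 members with a miR-301b seed match did not pass the test in any genotype. SPRED1, which has the 8-base match, was at 8.75 and 6.04 CPM in Y537S controls and 5.75 and 5.89 CPM after the mimic, a log2 value of −0.37 (SE 0.24, adjusted p = 0.41). In WT cells it went from 5.86 and 4.66 to 4.05 and 3.37 CPM, −0.51 (SE 0.23, adjusted p = 0.19), and the groups did not overlap in either genotype. In D538G cells they overlapped, at 5.44 and 8.17 against 5.85 and 6.79 CPM, with −0.10 (SE 0.24). With block and GC correction combined SPRED1 was at −0.08 (adjusted p = 0.79) in Y537S, 0.25 (0.41) in D538G and −0.32 (0.31) in WT cells. MAP2K1 had log2 values of −0.01 in Y537S, −0.07 in D538G and −0.13 in WT cells, each with an SE between 0.091 and 0.117. Its overlapping neighbour SNAPC5 went from 10.1 ± 0.387 to 8.94 ± 0.518 CPM in Y537S, from 10.4 ± 0.0199 to 9.42 ± 0.21 CPM in D538G and from 7.32 ± 0.611 to 5.36 ± 0.284 CPM in WT cells (SD, n = 2 each), and its part in the MAP2K1 values was not tested. HRAS was at 0.11, 0.15 and 0.18, and with block and GC correction combined at −0.24 (adjusted p = 0.0086), −0.20 (0.037) and −0.20 (0.069). NRAS was at 0.08, 0.01 and 0.14, and with block and GC correction combined at 0.32, 0.29 and 0.32, called in all 3. Over all genes this combined fit called 4380 of 15145, 2753 of 14845 and 3042 of 15113.

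After the miR-181c mimic 1 member, MAPK3, was called in WT cells, against 16.4% of 14968 genes, and none was called in D538G cells, against 9.52% of 14826 genes. In WT cells MAPK3 was at 69.0 and 70.1 CPM after the mimic, against 54.7 and 58.3 CPM in the controls, a fold of 1.22 (log2 0.29, SE 0.080, adjusted p = 0.032). The call was lost without the control library of D1 (0.24, adjusted p = 0.267), without that of D4 (0.33, adjusted p = 0.107) and without the mimic library of D4 (0.26, adjusted p = 0.124). The GC correction brought the value to 0.02 (adjusted p = 0.93). In D538G cells MAPK3 went from 58.3 and 62.0 to 69.1 and 72.1 CPM, with a log2 value of 0.24 (SE 0.081, adjusted p = 0.091). With a block for clone it was called there (adjusted p = 0.0055), and both corrections together gave −0.06.

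Of the 3 members with miR-181c seed matches, DUSP6 was the one furthest below its control in WT cells. Its levels were 1.91 and 2.88 CPM after the mimic (67 and 97 counts), against 4.44 and 3.97 CPM in the controls (162 and 132 counts), with no overlap. The log2 value was −0.82 (SE 0.28, adjusted p = 0.075), and with a block for clone it was −0.84 (SE 0.26, adjusted p = 0.018). The block together with the GC correction gave −0.80 (adjusted p = 0.018), in a fit that called 2096 of 14968 genes over all. Without the mimic library of D4 it was also called (−1.17, adjusted p = 0.0367). In D538G cells DUSP6 was at 2.17 and 1.80 CPM after the mimic and at 2.52 and 2.44 in the controls, a log2 value of −0.31 (SE 0.30, adjusted p = 0.57).

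MAP2K1, with a pair of miR-181c matches, was lower in both D538G clones, at 48.3 and 46.1 CPM after the mimic against 56.2 and 54.0 CPM. The groups did not overlap and the log2 value was −0.21 (SE 0.085, adjusted p = 0.15), called with a block for clone (adjusted p = 0.029). With block and GC correction combined it was −0.27 and called (adjusted p = 0.0025), in a fit that called 2672 of 14826 genes over all. SNAPC5 was at 10.4 ± 0.0199 CPM in these controls and 10.3 ± 0.64 CPM after the mimic (SD, n = 2 each). In WT cells MAP2K1 was at −0.10 (SE 0.094, adjusted p = 0.55), and at −0.15 with block and GC correction combined (adjusted p = 0.32). SNAPC5 went there from 7.32 ± 0.611 to 6.49 ± 1.02 CPM (SD, n = 2 each), and its part in the MAP2K1 values was not tested. NRAS, also with a pair of matches, was at 0.01 (SE 0.082) in D538G and −0.15 (SE 0.107) in WT cells, and its groups overlapped in both. HRAS had no match and was called in WT cells with the block, at 0.27 (SE 0.087, adjusted p = 0.024). In all, the block called 2 members in D538G cells, against 29.3% of genes, and 3 in WT cells, against 27.9%. With block and GC correction combined HRAS was at −0.29 in D538G cells, called (adjusted p = 0.0011), and at −0.08 in WT cells (adjusted p = 0.66). Without either, its D538G value had the opposite sign, at 0.12 (SE 0.102, adjusted p = 0.53).

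After the let-7f inhibitor no member was called in Y537S cells, and no gene of 15140 was (0%). At an unadjusted p under 0.05 there were 786 genes, and DESeq2 called 78. NRAS, the member with a let-7f match, was at 117 and 99.0 CPM in the inhibitor control libraries of clones 1 and 2 and at 103 and 88.3 CPM after the inhibitor. It was lower in each clone, and the groups overlapped because the clones differ. The log2 value was −0.18 (SE 0.122, adjusted p = 0.9998), and with a block for clone it was −0.18 (SE 0.045, adjusted p = 0.014), where 11.2% of genes were called. With block and GC correction combined it was −0.01. DUSP6 went from 3.19 to 1.24 CPM in clone 1 and from 5.16 to 4.88 CPM in clone 2, with −0.45 (SE 0.66) without and −0.62 (SE 0.26, adjusted p = 0.14) with the block. With block and GC correction combined it was −0.63 and called (adjusted p = 0.047), in a fit that called 1777 of 15140 genes over all. NRAS stood higher in the inhibitor control libraries than in the mimic control libraries of the same clones, at 73.0 and 68.0 CPM in the latter, a comparison of control oligonucleotides that was not tested here.

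**Figure D4:**
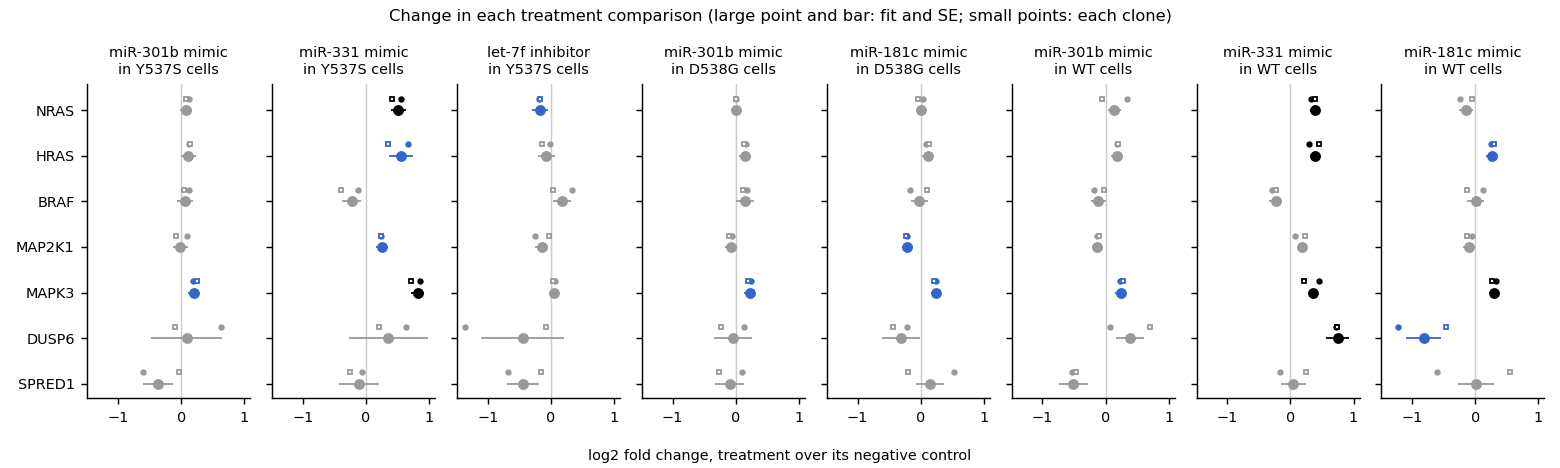
Log2 fold change (x axis) of each member (y axis) in the 8 treatment comparisons, each over its own negative control, with a large point and a bar for the fit and 1 SE and small points for each clone. Black marks a call without a block, blue a call only with a block for clone, and grey no call. MAPK3 is above 0 in all 8, from 0.05 after the let-7f inhibitor to 0.82 in Y537S cells after the miR-331 mimic, and mimic comparisons within a genotype share control libraries. With the GC correction, not drawn here, MAPK3 was below 0 after miR-301b in every genotype, after miR-181c in D538G and after miR-331 in WT cells.

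Other genes of the pathway were followed in a list of 44 genes by role, of which 39 to 41 were tested per comparison. After the miR-331 mimic 8 rose and 4 fell in Y537S cells, where 33% of all genes tested were called, and the median log2 value of the 39 tested was 0.21 beside −0.01 over all genes. In WT cells, where 24.8% of all genes were called, 9 rose and 7 fell, with a median of 0.05 beside −0.0022. With the GC correction the counts were 2 up and 2 down in Y537S and 2 and 4 in WT cells. Over all genes it called 3061 of 14877 and 1254 of 15140. With block and GC correction combined the counts were 18 and 6, and 7 and 7, against 8041 and 3636 of all genes. MAP2K2, the MEK2 gene, rose by 0.84 in Y537S cells (SE 0.173, adjusted p = 0.019). RASA2, which encodes a RAS GTPase-activating protein, had the largest fall, at −1.60 in Y537S (SE 0.13, adjusted p = 0.0061) and −0.58 in WT cells (SE 0.096, adjusted p = 0.0019). SOS1, an exchange factor that loads RAS with GTP, was at −0.86 in Y537S cells (SE 0.191, adjusted p = 0.022). DUSP4, a nuclear phosphatase of ERK, rose in both genotypes, by 1.12 (adjusted p = 0.030) and 0.87 (adjusted p = 0.0056). PHLDA1 rose by 0.57 (adjusted p = 0.030) and DUSP5, another ERK phosphatase gene, was at −0.45 (adjusted p = 0.0023) in WT cells. With block and GC correction combined these values were 0.31 for MAP2K2, −1.02 and −0.44 for RASA2, −0.52 for SOS1, 0.97 and 0.80 for DUSP4, 0.65 for PHLDA1 and −0.64 for DUSP5. With the GC correction alone MAP2K2 (adjusted p = 0.13), SOS1 (0.089) and DUSP4 (0.053) were not called in Y537S cells. RASA2 in both genotypes and DUSP4, PHLDA1 and DUSP5 in WT cells were still called.

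After the miR-301b mimic 0 rose and 2 fell in Y537S cells, 2 rose and 5 fell in D538G cells, and 0 rose and 2 fell in WT cells. Of all genes 3.57%, 11.8% and 8.5% were called in these comparisons. RAP1A, a RAS-related GTPase gene, fell in all 3, at −0.83 (SE 0.109, adjusted p = 0.027), −0.48 (SE 0.114, adjusted p = 0.028) and −0.59 (SE 0.137, adjusted p = 0.037). The exchange factor genes SOS2 in Y537S cells (−0.49, adjusted p = 0.042) and SOS1 in D538G cells (−0.43, adjusted p = 0.021) also fell. GRB2, an adaptor that binds SOS, and the RAF kinase gene ARAF rose in D538G cells, by 0.30 (adjusted p = 0.037) and 0.32 (adjusted p = 0.036). CCND1, the cyclin D1 gene, fell in WT cells (−0.31, adjusted p = 0.037). RAP1A, with block and GC correction combined, was at −0.60, −0.20 (adjusted p = 0.075) and −0.42, SOS2 at −0.33, SOS1 at −0.26, GRB2 at 0.23, ARAF at 0.09 (adjusted p = 0.27) and CCND1 at −0.33. The combined fit called 4380 of 15145, 2753 of 14845 and 3042 of 15113 genes over all. With the GC correction alone RAP1A was not called in Y537S cells (adjusted p = 0.085) or D538G cells (0.43) and was called in WT cells (0.031). SOS2 was not called in Y537S cells (0.16) and CCND1 was called in WT cells (0.019). After the miR-181c mimic 1 gene rose and 1 fell in D538G cells and 7 rose and 6 fell in WT cells, against 9.52% and 16.4% of all genes. SHOC2, a scaffold that promotes RAF activation, fell in both, by 0.46 (adjusted p = 0.011) and by 0.62 (adjusted p = 0.00095) on the log2 scale, and CCND1 rose in both, by 0.29 (adjusted p = 0.035) and 0.40 (adjusted p = 0.0039). In WT cells RRAS2, a RAS-related GTPase gene, was at −0.39 (adjusted p = 0.037) and RPS6KA1, the gene of an ERK-activated kinase, at 0.39 (adjusted p = 0.025). SHOC2, with block and GC correction combined, was at −0.33 and −0.39, CCND1 at 0.25 and 0.36, RRAS2 at −0.28 and RPS6KA1 at 0.19 (adjusted p = 0.17). With the GC correction 3 genes rose and 2 fell after the miR-181c mimic in WT cells, against 1070 of 14968 genes over all. SHOC2 and CCND1 were still called there, and RRAS2 (adjusted p = 0.16) and RPS6KA1 (0.29) were not. No gene of the list was called with this correction after either mimic in D538G cells, against 226 of 14845 genes for miR-301b and 291 of 14826 for miR-181c. With a block for clone alone, the counts after the miR-301b mimic were 8 up and 8 down in Y537S, 6 and 7 in D538G and 6 and 8 in WT cells. Of all genes 38.4%, 33.3% and 28.2% were called in these fits. After the let-7f inhibitor none was called without the block (0% of all genes) and 4 fell with it (11.2% of all genes called).

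Among the 10 ERK-dependent transcripts of the list, 7 or 8 were tested in each treatment comparison. Without a block, at most 1 of them was called in a direction. DUSP6, a member, and DUSP4, SPRY2 and SPRY4, counted with the inhibitors, are not among these 10. In WT cells after the miR-331 mimic PHLDA1 (0.57, adjusted p = 0.030), DUSP4 (0.87, 0.0056) and DUSP6 (0.75, 0.013) were called higher without a block. DUSP5, an ERK phosphatase gene, was called lower there (−0.45, 0.0023), and 24.8% of all genes were called. PHLDA1 and DUSP4 are named as the largest called rises of the list, so they do not stand for the ERK-dependent transcripts as a set. In Y537S cells, where 33% of all genes were called, DUSP4 was called (1.12, 0.030) and DUSP6 was not (0.35, 0.70). With a block for clone, CCND1, FOS and PHLDA1 rose and EPHA4 fell in Y537S cells after the miR-331 mimic. These are 3 up and 1 down, where 60.7% of all genes were called. CCND1 and EPHA4, 2 genes, fell under the block for miR-301b in Y537S and in WT cells, where 38.4% and 28.2% of all genes were called. Between genotypes, 6 genes of the list were higher and 8 lower in Y537S than in WT control cells, and 6 were higher and 14 lower in D538G cells, against 29% and 38.9% of all genes. In D538G cells the median log2 value was −0.13 beside −0.0008 over all genes. The rule for naming genes did not cover these genotype comparisons, so the following genes were chosen after their values were seen. DUSP4 was higher in both mutants, by 1.39 (SE 0.187, adjusted p = 0.002) and 1.33 (SE 0.155, adjusted p = 0.00021). SPRY2, an inhibitor of receptor signalling to RAS, was higher by 2.45 (SE 0.49, adjusted p = 0.0099) and 2.08 (SE 0.39, adjusted p = 0.0028), from a WT level of 0.769 ± 0.274 CPM (SD, n = 2). SPRED2, a relative of SPRED1, was lower in Y537S than in WT cells (−0.94, SE 0.092, adjusted p = 0.00056) and lower than in D538G cells (−0.56, adjusted p = 0.032). SOS2 was lower in D538G than in WT cells (−0.65, SE 0.079, adjusted p = 0.00028).

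The genes whose log2 CPM followed each member most closely over the 24 libraries were taken from the 10064 genes whose log2 CPM averaged 3 or more. They were PPP1CC and EIF4E3 for NRAS (Pearson r of 0.912 and 0.887), ORAI2 and ABCB6 for HRAS (0.969 and 0.95), and SP1 and DTD2 for BRAF (0.776 and 0.76). For MAP2K1 they were SNRNP40 and MRPS11 (0.941 each), and for MAPK3 SLC25A1 and KLHDC3 (0.958 and 0.957). DUSP6 was followed by ARFGEF3 and PCDHA1 (0.811 and 0.807) and SPRED1 by GTF2A2 and CDKN1B (0.827 and 0.824). PCDHA1 shares exons with its neighbours in a gene cluster, so its counts are uncertain. The points share genotype, clone, treatment and the base composition trend of each library, and the correlations are descriptions with no test.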

How the data were processed

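RNA-seq was made from 24 libraries of T-47D clones, 12 conditions with 2 clones each. The authors selected poly-A RNA, aligned reads with HISAT2 (build hg19) and obtained gene counts with featureCounts, part of Subread, using UCSC Known Genes as annotation. The tables hold these counts as deposited, with no normalization. Strand setting and multi-mapping are not given in the sources used here.

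Counts were tested with edgeR 4.0.16 in R 4.3.3 (TMM, filterByExpr defaults, quasi-likelihood F test, two-sided, Benjamini-Hochberg over all genes, called at adjusted p under 0.05). The SE is the log2 fold change divided by the square root of F. Each comparison used its own libraries. Alternatives were DESeq2 1.42.0, its size factors in edgeR, no filter, all conditions in 1 fit, a GC correction (lowess span 0.3), the clone as a block, both together, each library left out, and, between genotypes, the miR-301b mimic libraries. Log2 CPM used a prior count of 2. The fits were tested on simulated data. The clones of a condition differed by 11.2 to 48.3 times counting noise (chi-square per degree of freedom), so none is a copy of another.

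Clone names in the column headings pair the libraries, since the same heading is the same cell line. The correlation of the clones' deviations from the condition means between treated and control libraries was 0.427 to 0.468 in Y537S, 0.152 and 0.175 in D538G and 0.116 to 0.177 in WT cells (16383 genes). Headings of D538G and WT columns give clone names that could not be joined to the clone numbers of single samples, so these columns were assigned to their condition.

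Of 26364 genes, 22494 were matched to GENCODE (GRCh37) by symbol and 1358 by a RefSeq synonym. Genes without a GC value stayed in the fits. The members, the pathway list and the tests were chosen with earlier results of these data known. Named are all 7 members; per treatment comparison the 2 largest rises and 2 largest falls of called list genes with a mean of at least 1 CPM; and the 2 genes most correlated with each member.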

Additional observations from a re-analysis of the deposited data

Results flagged for a closer look

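1 result of a member was flagged by the test of the difference between groups with the clone as a block. That fit called 34.1% of 15666 genes, so a call in it does not set a member apart. With block and GC correction combined 2 members, MAPK3 and NRAS, were called, and 5175 genes over all. The rise of MAPK3 after the miR-331 mimic was larger in Y537S than in WT cells by 0.438 on the log2 scale with the clone as a block (SE 0.102, adjusted p = 0.0013 in edgeR), and MAPK3 was higher in each of the 4 clones after this mimic. Without the block the difference was 0.44 (adjusted p = 0.080), which did not pass the test. Conditions have 2 samples each, so no sample could be tested as an outlier within its group.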

How the results depend on the processing

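Over the 1237 values of single members under an alternative, 1050 kept their direction and their side of the threshold, 40 newly passed it, 27 no longer passed it and 120 changed sign, 70 of these with 1 library left out. Of the sign changes, 8 concerned a value called with or without the alternative, 2 with the GC correction and 6 with the replicate block (the clone) and the GC correction. The cause was not tested. With the GC correction alone, HRAS was at −0.24, −0.1999 and −0.1999 (miR-301b in Y537S, D538G and WT), −0.288 and −0.082 (miR-181c in D538G and WT) and −0.131 (miR-331, WT). MAPK3 was at −0.083, −0.052 and −0.043 (miR-301b, same order), −0.063 (miR-181c, D538G) and −0.020 (miR-331, WT), and BRAF at 0.108 (miR-331, Y537S), 0.079 (miR-181c, D538G), 0.017 (miR-301b, WT) and 0.182 (miR-331 response). SPRED1 was at 0.517 (miR-331, Y537S), 0.237 (miR-301b, D538G) and 0.274 (miR-331 response), DUSP6 at 0.00026 (miR-301b, D538G), and NRAS at 0.055 (miR-181c, WT) and 0.021 (miR-301b response, Y537S minus WT). With the replicate block and the GC correction, HRAS was at −0.24, −0.1975 and −0.2003 (miR-301b), −0.287 and −0.084 (miR-181c) and −0.130 (miR-331, WT), and MAPK3 at −0.083, −0.051 and −0.043 (miR-301b), −0.061 (miR-181c, D538G) and −0.021 (miR-331, WT). BRAF was at 0.099 (miR-331, Y537S), 0.078 (miR-181c, D538G), 0.015 (miR-301b, WT) and 0.173 (miR-331 response), SPRED1 at 0.496 (miR-331, Y537S), 0.247 (miR-301b, D538G) and 0.249 (miR-331 response), and NRAS at 0.053 (miR-181c, WT) and 0.016 (miR-301b response, Y537S minus WT). For miR-181c in WT cells BRAF was at −0.0065 with DESeq2, −0.0066 with its size factors, −0.015 with no filter and −0.0010 with the replicate block, and SPRED1 at −0.0080 with no filter and −0.027 with the block. For the miR-331 response BRAF was at 0.035 with DESeq2 and with its size factors (0.0353 and 0.0352), and among the miR-301b mimic libraries BRAF was at 0.146 in Y537S against WT.

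With 1 library left out, signs changed for 39 of the values, and no sign change concerned a value called with or without that library. For miR-301b in Y537S cells the ranges were −0.144 to 0.116 (MAP2K1) and −0.483 to 1.096 (DUSP6), in D538G cells −0.00088 to 0.020 (NRAS), −0.254 to 0.151 (DUSP6) and −0.365 to 0.224 (SPRED1), and in WT cells −0.011 to 0.279 (NRAS). For miR-331 they were −0.308 to 1.36 (DUSP6) and −0.49 to 0.236 (SPRED1) in Y537S cells and −0.101 to 0.220 (SPRED1) in WT cells. For miR-181c they were −0.016 to 0.038 (NRAS), −0.096 to 0.053 (BRAF) and −0.106 to 0.468 (SPRED1) in D538G cells, and −0.334 to 0.0023 (NRAS), −0.17 to 0.138 (BRAF) and −0.486 to 0.371 (SPRED1) in WT cells. For the let-7f inhibitor they were −0.24 to 0.076 (HRAS) and −1.75 to 0.219 (DUSP6). Between Y537S and WT cells they were −0.081 to 0.00057 (BRAF) and −1.39 to 0.187 (DUSP6), and between the mutants −0.649 to 0.944 (DUSP6) and −0.137 to 0.450 (SPRED1). For the miR-301b response of Y537S minus WT they were −0.194 to 0.092 (NRAS), −0.173 to 0.060 (HRAS), −0.017 to 0.262 (MAP2K1), −0.109 to 0.028 (MAPK3), −0.865 to 0.711 (DUSP6) and −0.089 to 0.441 (SPRED1), and for D538G minus WT −0.27 to 0.0035 (NRAS), −0.115 to 0.055 (HRAS) and −0.101 to 0.049 (MAPK3). For the miR-331 response they were −0.035 to 0.222 (NRAS), −0.171 to 0.376 (HRAS), −0.175 to 0.115 (BRAF), −0.00078 to 0.127 (MAP2K1), −1.11 to 0.586 (DUSP6) and −0.59 to 0.133 (SPRED1), and for the miR-181c response −0.187 to 0.153 (BRAF), −0.102 to 0.0041 (MAPK3) and −0.214 to 0.611 (SPRED1).

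The GC correction alone called 2 members after the miR-331 mimic in WT cells (4 without it) and 0 after the miR-181c mimic in WT cells (1 without it). Over all genes it called 1254 of 15140 (3755 without it) and 1070 of 14968 (2452 without it).

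With the replicate block the count of members called went from 0 to 1 for miR-301b in each genotype and for the let-7f inhibitor, from 2 to 4 in Y537S cells after the miR-331 mimic, from 0 to 2 and from 1 to 3 for miR-181c in D538G and WT cells, and from 0 to 1 for the difference of the miR-331 response. It ended no call of a member, and other blocked counts were unchanged. Of all genes the block called 38.4%, 33.3% and 28.2% for miR-301b in Y537S, D538G and WT cells and 11.2% for the let-7f inhibitor. It called 60.7% for miR-331 in Y537S cells, 29.3% and 27.9% for miR-181c in D538G and WT cells, and 34.1% for the miR-331 response. With block and GC correction combined the counts were 2, 3 and 1 for miR-301b in Y537S, D538G and WT cells, and 1 for the let-7f inhibitor. They were 2 in D538G cells with the miR-181c mimic, 2 after the miR-331 mimic in WT cells and 2 for the miR-331 response. The counts over all genes, in the same order, were 4380 of 15145, 2753 of 14845, 3042 of 15113 and 1777 of 15140. The last 3 were 2672 of 14826, 3636 of 15140 and 5175 of 15666. DESeq2 called 2 members between D538G and WT cells, 1 between Y537S and D538G cells and 1 for the miR-331 response. Over all genes it called 5372 of 15297, 1588 of 14105 and 2296 of 14864. With no filter 2 members were called after the miR-181c mimic in WT cells (3249 of 20021 genes over all) and 1 between Y537S and D538G cells (1991 of 19746). All conditions in 1 fit called 3 members after the miR-181c mimic in WT cells (2641 of 15584 genes over all) and 1 for the miR-331 response (2148 of 16269). DESeq2's size factors changed no count of members. With 1 library left out, where the lone library is assumed to vary like its partners, the counts ranged from 1 to 3 (miR-331, Y537S), 0 to 1 (miR-301b, WT), 2 to 4 (miR-331, WT), 0 to 1 (miR-181c, WT), 0 to 5 (Y537S against WT), 2 to 3 (D538G against WT), 0 to 1 (Y537S against D538G) and 0 to 1 (miR-331 response). The count of 5 was without the Y537S control library of clone 2. Requiring an 8-base seed match left 1 member for miR-301b, 0 for miR-181c and 0 for let-7f, and the longest 3′UTR gave 2 for let-7f.

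Counts over all genes moved more. The GC correction alone called 23, 226 and 786 genes for miR-301b in Y537S, D538G and WT cells (541, 1750 and 1284 without it), 3061 and 1254 after the miR-331 mimic in Y537S and WT cells (4913 and 3755), and 291 and 1070 for miR-181c in D538G and WT cells (1412 and 2452). The block called 5819, 4941 and 4269 for miR-301b, 9035 in Y537S cells after the miR-331 mimic, 4341 and 4173 after the miR-181c mimic and 1694 after the let-7f inhibitor. Block and GC correction together called 4380, 2753 and 3042 for miR-301b, 8041 for miR-331 in Y537S, 2672 for miR-181c in D538G and 1777 for let-7f. DESeq2 called 1732 for miR-301b in Y537S cells and 1588 between the mutants (925 with edgeR). With no filter 2871 and 2639 were called for miR-301b in D538G and WT cells, 2438 for miR-181c in D538G cells and 1991 between the mutants, and all conditions in 1 fit gave 1430 and 2095 for miR-301b in Y537S and WT cells and 1593 between the mutants. For the response differences the block called 32, 23 and 12 genes where 1 was called without it, and 5345 for miR-331 (1557 without it); with the GC correction added these were 185, 50, 13 and 5175. DUSP6 is limited by depth, with 47 to 306 counts per library.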
